A study of Homo sapiens with 14 samples.

Results

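Transcripts of 10 genes of transforming growth factor beta (TGF-beta) and bone morphogenetic protein (BMP) signalling were followed in 2 human melanoma cell lines after FOXD1, a forkhead transcription factor, was targeted. The genes were chosen by symbol, and every array probe annotated to TGFB1, TGFB2, TGFBR1, TGFBR2, BMPR2, SMAD7, SKIL, TGIF1, ID1 or ID3 was taken. This gave 22 probes, of 48097 probes and 20043 named genes in all. Total RNA was measured on 14 Illumina bead arrays, on which short probes report the level of a transcript as brightness. The melanoma line WM266-4 was given FOXD1 siRNA 1 (3 arrays), FOXD1 siRNA 2 (3 arrays) or a negative control siRNA (3 arrays). The melanoma line A375 was given a plasmid with FOXD1 (3 arrays) or the empty vector (2 arrays). Both lines carry a BRAF mutation, per the labels. The labels speak of the A375 cells both as transfected and as transduced, and the sources used here do not name the promoter that drives FOXD1. Each condition was tested in 1 cell line only. The siRNA sequences, of 25 nucleotides each, are shown as the labels give them for the FOXD1 siRNA groups. The labels do not say which strand is written.

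FOXD1 siRNA 1: uacugcuaggauuuccaauuguuaa
FOXD1 siRNA 2: gccgaggaaacagacaucgacgugg

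TGF-beta and BMP ligands bind pairs of type I and type II receptor kinases, which phosphorylate SMAD transcription factors. TGF-beta works through TGFBR2 and TGFBR1, and BMPs work through BMPR2 and its type I partners. SMAD7 blocks the receptors, while SKIL and TGIF1 hold back SMAD-driven transcription in the nucleus. ID1 and ID3 are classical BMP targets that inhibit basic helix-loop-helix factors. In melanoma, TGF-beta signalling is known for its links to the invasive, less differentiated cell state.

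FOXD1 itself was read by probe ILMN_1704418. Its log2 value was 6.49, 6.50 and 6.63 with siRNA 1, 7.10, 7.14 and 7.06 on the arrays labelled siRNA 2, and 6.97, 7.00 and 7.21 with control siRNA. All siRNA 1 arrays lay below all control arrays, whereas the arrays labelled siRNA 2 overlapped them. FOXD1 was 1.43-fold lower with siRNA 1 (log2 change -0.52, SE 0.09, adjusted p = 0.00111) and differed by 0.04 on the arrays labelled siRNA 2 (95% interval -0.15 to 0.23, adjusted p = 0.904). It was detected on only 1 of 3 siRNA 1 arrays, and with background correction by the normexp model the siRNA 1 change was -1.39, or 2.62-fold (adjusted p = 0.000128). A source field of the arrays labelled siRNA 2 names FOXD2, which differed from control there by -0.04 (interval -0.27 to 0.19, adjusted p = 0.931). Directions drawn from the arrays labelled siRNA 2 therefore rest on the label alone. In A375, FOXD1 was at 8.0, 8.17 and 8.30 with overexpression, against 7.86 and 7.84 with empty vector, and the difference of 0.31 did not pass (adjusted p = 0.0879). Whether this probe reads the FOXD1 of the plasmid is not settled by the sources used here, so the size of the overexpression cannot be given. The deposited intensity column of empty vector replicate 1 repeats that of overexpression replicate 3. Values here are therefore the authors' log2 values, in which that array is distinct, except where normexp or joint normalization is named. Those fits start from intensities, with the antilog of the authors' log2 values standing in for the copied column. From 22104 to 24257 probes were detected per array at a detection p under 0.05. Of 8 melanocytic markers with a probe, 6 were detected on every WM266-4 array and 8 on every A375 array, SOX10, MITF, PMEL and TYR among them. Of the markers of other cell types, 2 of 4 immune (CD14 and CD68) and 1 of 3 endothelial (VWF) were detected on every array. This held for 0 of 5 fibroblast and 0 of 4 epithelial markers. CD3E, CDH5 and PDGFRA were detected on no array, PTPRC on no A375 array, and KRT5 and CDH1 on no WM266-4 array. The rest were detected on some but not all arrays of each line. In such bulk RNA, fewer cells of a type and less RNA per cell cannot be told apart.

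Probes detected on all 14 arrays numbered 8, a pair each for the type II receptors TGFBR2 and BMPR2 and for the inhibitors SMAD7 and TGIF1. A probe was tested if detected on at least 2 arrays, which left 20 member probes of 9 genes among 32167 tested probes. The TGFB1 probe and 1 of the ID1 probes were detected on 0 of 14 arrays and were not tested. Each change below is a difference of the authors' log2 values from 1 limma fit over the 5 groups, called where the Benjamini-Hochberg adjusted p over all tested probes was under 0.05. The labels leave unsaid whether replicates came from separate cultures, so a p-value here reflects the scatter among these arrays alone, and that scatter may be technical. Every probe called among the members belonged to the 8 that were detected throughout.

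The counts of members called were small in the main fit, which leaves the replicate numbers out. With siRNA 1, 1 of 20 member probes fell and 0 rose, against 10.0% of all tested probes called in either direction and 4.99% called lower. On the arrays labelled siRNA 2, 4 of 20 fell and 0 rose, against 5.79% in either direction and 2.66% lower, and these 4 probes read only BMPR2 and TGIF1. Between the siRNA groups, 1 of 20 was higher with siRNA 1, a TGIF1 probe, against 4.42% in either direction and 1.64% higher. With overexpression 2 of 20 rose, both of TGFBR2, against 7.02% in either direction and 3.53% higher. Both siRNA comparisons share the control arrays. The median change of the 20 probes was -0.11 with siRNA 1, -0.17 on the arrays labelled siRNA 2, 0.01 between them and 0.09 with overexpression, while the median of all tested probes was within 0.01 of 0 in each.

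Same-numbered WM266-4 arrays moved together over all probes, so the counts were repeated with the replicate number as a block. Then 5 member probes were called with siRNA 1, all lower, against 15.2% of all tested probes. On the arrays labelled siRNA 2 the block gave 6, with 5 lower and 1 higher, against 10.6%, and between the siRNA groups it gave 2, against 8.67%. With background correction by the normexp model and joint normalization, the counts were 1 of 20 with siRNA 1 (7.97% of all tested probes), 2 on the arrays labelled siRNA 2 (3.64%), 0 between them (2.96%) and 0 with overexpression (3.72%). In that limma fit, 6 of 20 member probes had an unadjusted p under 0.05 with siRNA 1 and 8 on the arrays labelled siRNA 2. Over all 32167 tested probes, 6225 and 5054 did. Between the siRNA groups 5 member probes did, against 4397 of all, and with overexpression 5, against 5647 of all. All arrays of 1 group lay on 1 side of the other group for 6 member probes with siRNA 1, 1 of them higher, and this held for 25.1% of all tested probes. The same was true of 7 member probes on the arrays labelled siRNA 2, 1 of them higher (20.2% of all), of 7 between the siRNA groups (19.7%) and of 8 with overexpression, 6 of them higher (30.5%).

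**Figure D1:**
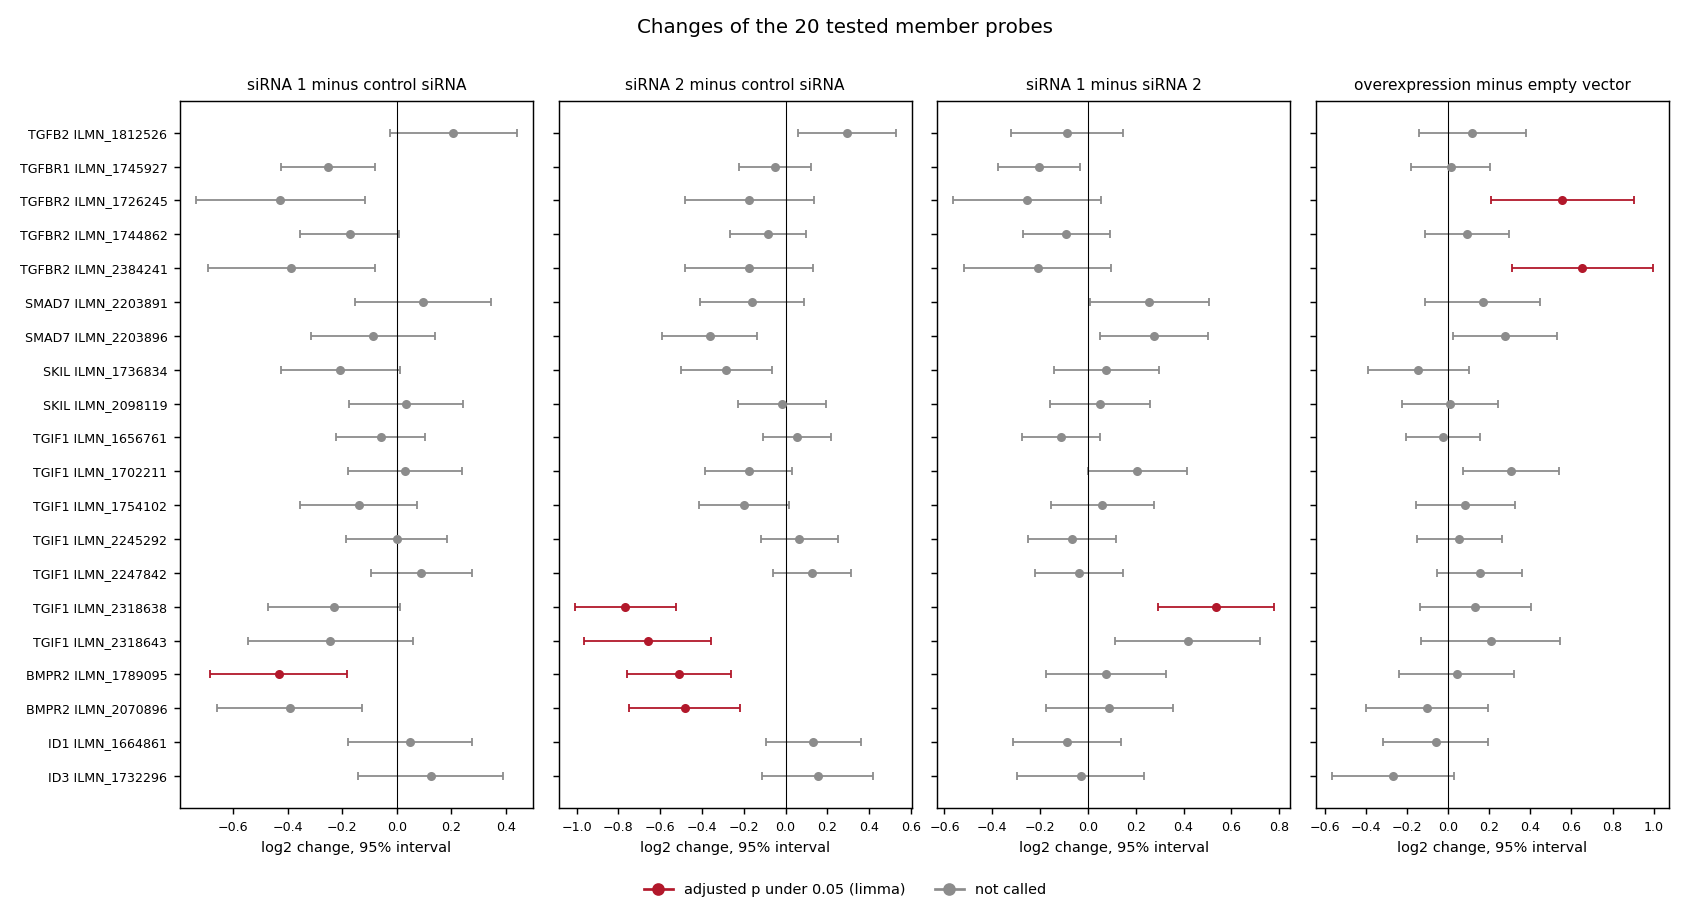
Log2 change (points) with its 95% interval (bars) of the 20 tested member probes in the 4 comparisons, 1 panel each, the first-named group minus the second. Red marks the 8 changes with a limma adjusted p under 0.05: BMPR2 and TGIF1 in the siRNA panels and TGFBR2 with overexpression.

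Promoters of the 3 genes with called probes are shown, since their transcripts changed in at least 1 comparison. Windows run from 250 bases before to 50 bases after an annotated RefSeq start site (GRCh38.p14), 5′ to 3′ on the gene's strand, here the plus strand for all, and for TGFBR2 and TGIF1 the most upstream start site listed was taken. Capitals mark the SMAD box, searched as CAGAC and on the other strand as GTCTG, and the GC-rich SMAD element GGCGCC, which reads the same on both strands. The BMPR2 window is chr2:202376077-202376376, the TGIF1 window chr18:3411759-3412058 and the TGFBR2 window chr3:30606106-30606405.

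BMPR2: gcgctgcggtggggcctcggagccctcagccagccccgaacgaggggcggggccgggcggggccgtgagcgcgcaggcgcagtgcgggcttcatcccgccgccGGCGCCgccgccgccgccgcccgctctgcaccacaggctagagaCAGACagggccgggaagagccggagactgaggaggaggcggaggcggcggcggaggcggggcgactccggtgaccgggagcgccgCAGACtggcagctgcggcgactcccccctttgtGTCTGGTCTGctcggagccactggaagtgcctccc
TGIF1: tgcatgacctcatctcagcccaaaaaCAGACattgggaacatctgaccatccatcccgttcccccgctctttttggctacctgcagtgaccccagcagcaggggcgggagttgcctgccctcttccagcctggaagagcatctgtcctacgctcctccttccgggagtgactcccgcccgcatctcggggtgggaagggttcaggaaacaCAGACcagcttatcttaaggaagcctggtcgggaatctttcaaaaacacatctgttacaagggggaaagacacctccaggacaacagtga
TGFBR2: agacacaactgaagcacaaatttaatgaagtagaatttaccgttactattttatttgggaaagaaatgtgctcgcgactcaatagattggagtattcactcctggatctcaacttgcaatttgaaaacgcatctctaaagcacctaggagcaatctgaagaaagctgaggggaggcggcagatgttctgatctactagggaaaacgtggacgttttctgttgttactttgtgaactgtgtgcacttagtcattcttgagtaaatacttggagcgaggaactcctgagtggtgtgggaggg

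The BMPR2 window held 4 SMAD boxes and 1 GC-rich element, the TGIF1 window 2 SMAD boxes, and the TGFBR2 window 0 of either. Over all 10 genes the SMAD box lay in 15 of 26 windows, from 7 genes, and in 45.3% of all 35116 promoter windows of the same length. Some windows of TGFBR1 and of TGIF1 overlap and share a match, so the windows are not separate counts and no excess is read from them. The GC-rich element lay in 3 of 26 windows (BMPR2, SKIL and TGFBR1) and in 19.2% of all. A forkhead motif, TGTTTAC or on the other strand GTAAACA, lay in 0 of 26 windows and in 3.42% of all. The motifs were searched separately and could share bases. A match describes the letters in the window only.

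BMPR2, the type II receptor for BMP ligands (chromosome 2, 202376327 to 202567749 in GRCh38.p14), fell in both siRNA groups and did not change with overexpression beyond the spread. On probe ILMN_1789095 the log2 values were 7.91, 7.91 and 8.06 with siRNA 1, 8.13, 7.62 and 7.90 on the arrays labelled siRNA 2, and 8.31, 8.39 and 8.48 with control siRNA. Every siRNA array lay below every control array, and replicate 2 of the arrays labelled siRNA 2 was the lowest. It averaged 7.96 ± 0.09 with siRNA 1, 7.88 ± 0.26 on the arrays labelled siRNA 2 and 8.39 ± 0.09 with control siRNA (SD, n = 3 each). BMPR2 was thus 1.35-fold lower with siRNA 1 (log2 change -0.43, SE 0.12, limma adjusted p = 0.0252) and 1.42-fold lower on the arrays labelled siRNA 2 (-0.51, SE 0.12, adjusted p = 0.0149). These folds are of signal without background subtraction.

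The other BMPR2 probe, ILMN_2070896, read 8.27, 8.27 and 8.54 with siRNA 1, 8.53, 7.99 and 8.29 on the arrays labelled siRNA 2, and 8.69, 8.72 and 8.85 with control siRNA. Again the siRNA arrays lay below all control arrays. Its change was -0.48 on the arrays labelled siRNA 2 (SE 0.13, adjusted p = 0.0300) and -0.39 with siRNA 1 (SE 0.13), which did not pass without the replicate block (adjusted p = 0.0590) and passed with it (0.0101). That siRNA 1 change also passed without siRNA 1 replicate 3 (0.0420), replicate 1 or 2 of the arrays labelled siRNA 2 (0.0367 and 0.0277) or overexpression replicate 3 (0.0361). In A375, BMPR2 on ILMN_1789095 was at 8.20, 8.03 and 8.41 with overexpression, against 8.14 and 8.20 with empty vector. The groups overlapped, and the differences of the 2 probes were 0.04 (95% interval -0.24 to 0.32) and -0.10 (-0.40 to 0.19). The BMPR2 calls of ILMN_1789095 were lost with normexp correction (adjusted p = 0.0741 for siRNA 1 and 0.0513 for siRNA 2) and without control replicate 2 (0.0748 and 0.0509) or 3 (0.0889 and 0.0606). The siRNA 1 call was also lost without siRNA 1 replicate 1 (0.0956) or 2 (0.0859), and the other without replicate 2 of its own group (0.0782). For ILMN_2070896 the call on the arrays labelled siRNA 2 was lost without any 1 control array (0.0642 to 0.105), without replicate 2 or 3 of that group (0.152 and 0.0741) and with normexp (0.0888).

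TGFBR2, the type II receptor that binds TGF-beta (chromosome 3, 30606356 to 30694142), rose in A375 with overexpression. Probe ILMN_2384241 read 11.17, 11.18 and 11.86 with overexpression, against 10.81 and 10.69 with empty vector. All overexpression arrays were above both vector arrays, and replicate 3 stood highest. The means were 11.40 ± 0.40 (SD, n = 3) with overexpression and 10.75 ± 0.085 (SD, n = 2) with empty vector, a 1.57-fold difference (log2 change 0.65, SE 0.16, limma adjusted p = 0.0210). Probe ILMN_1726245 read 10.50, 10.88 and 11.25 with overexpression, against 10.19 and 10.45 with empty vector, again with no overlap, and its change was 0.56 (SE 0.16, adjusted p = 0.0497). Without overexpression replicate 3 the changes were 0.43 (adjusted p = 0.0316) and 0.37 (0.138), and with normexp correction or the A375 arrays alone neither probe passed (0.0825 to 0.200). Without empty vector replicate 1 or 2 neither passed (0.0620 to 0.309), and ILMN_1726245 passed in only 3 of the 14 fits that left out 1 array.

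In WM266-4 the calls of the same TGFBR2 probes depended on the fit. ILMN_1726245 was at 10.96, 10.90 and 11.09 with siRNA 1, 11.34, 11.15 and 11.22 on the arrays labelled siRNA 2, and 11.42, 11.59 and 11.22 with control siRNA. On this probe the siRNA 1 arrays lay below all control arrays, and the arrays labelled siRNA 2 overlapped them. On ILMN_2384241 both siRNA groups lay below all control arrays. There the arrays labelled siRNA 2 read 11.70, 11.53 and 11.65, against 11.76, 11.93 and 11.72 with control siRNA. The siRNA 1 changes of -0.43 and -0.39 did not pass in the fit of all arrays (adjusted p = 0.0815 and 0.118). They passed with the replicate block (0.00421 and 0.00716), with the WM266-4 arrays alone (0.0118 and 0.0172) and without overexpression replicate 3 (0.0192 and 0.0103), whose group holds the widest spread of these probes, and ILMN_1726245 also without overexpression replicate 1 (0.0278). On the arrays labelled siRNA 2 the changes were -0.17 (interval -0.48 to 0.14) and -0.18 (-0.48 to 0.13). A further TGFBR2 probe, ILMN_1744862, was detected on 3 of 14 arrays and was not called in any comparison, with changes of -0.17 to 0.09.

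TGFBR1, the type I receptor of TGF-beta (chromosome 9, 99103647 to 99154192), was read by 1 probe near background. It was at 6.64, 6.61 and 6.52 with siRNA 1, 6.80, 6.78 and 6.80 on the arrays labelled siRNA 2, and 6.90, 6.75 and 6.88 with control siRNA. It was detected on 1 of 3 siRNA 1 arrays and on 3 of 3 arrays of each other WM266-4 group, and all siRNA 1 arrays were below the rest. The siRNA 1 change of -0.25 (SE 0.08) did not pass (adjusted p = 0.0601), but passed with the replicate block (0.0485) and with normexp correction (-0.70, adjusted p = 0.0251). In A375 it was at 6.53, 6.76 and 6.64 with overexpression, against 6.60 and 6.66 with empty vector, and the groups overlapped (change 0.01, interval -0.18 to 0.21).

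**Figure D2:**
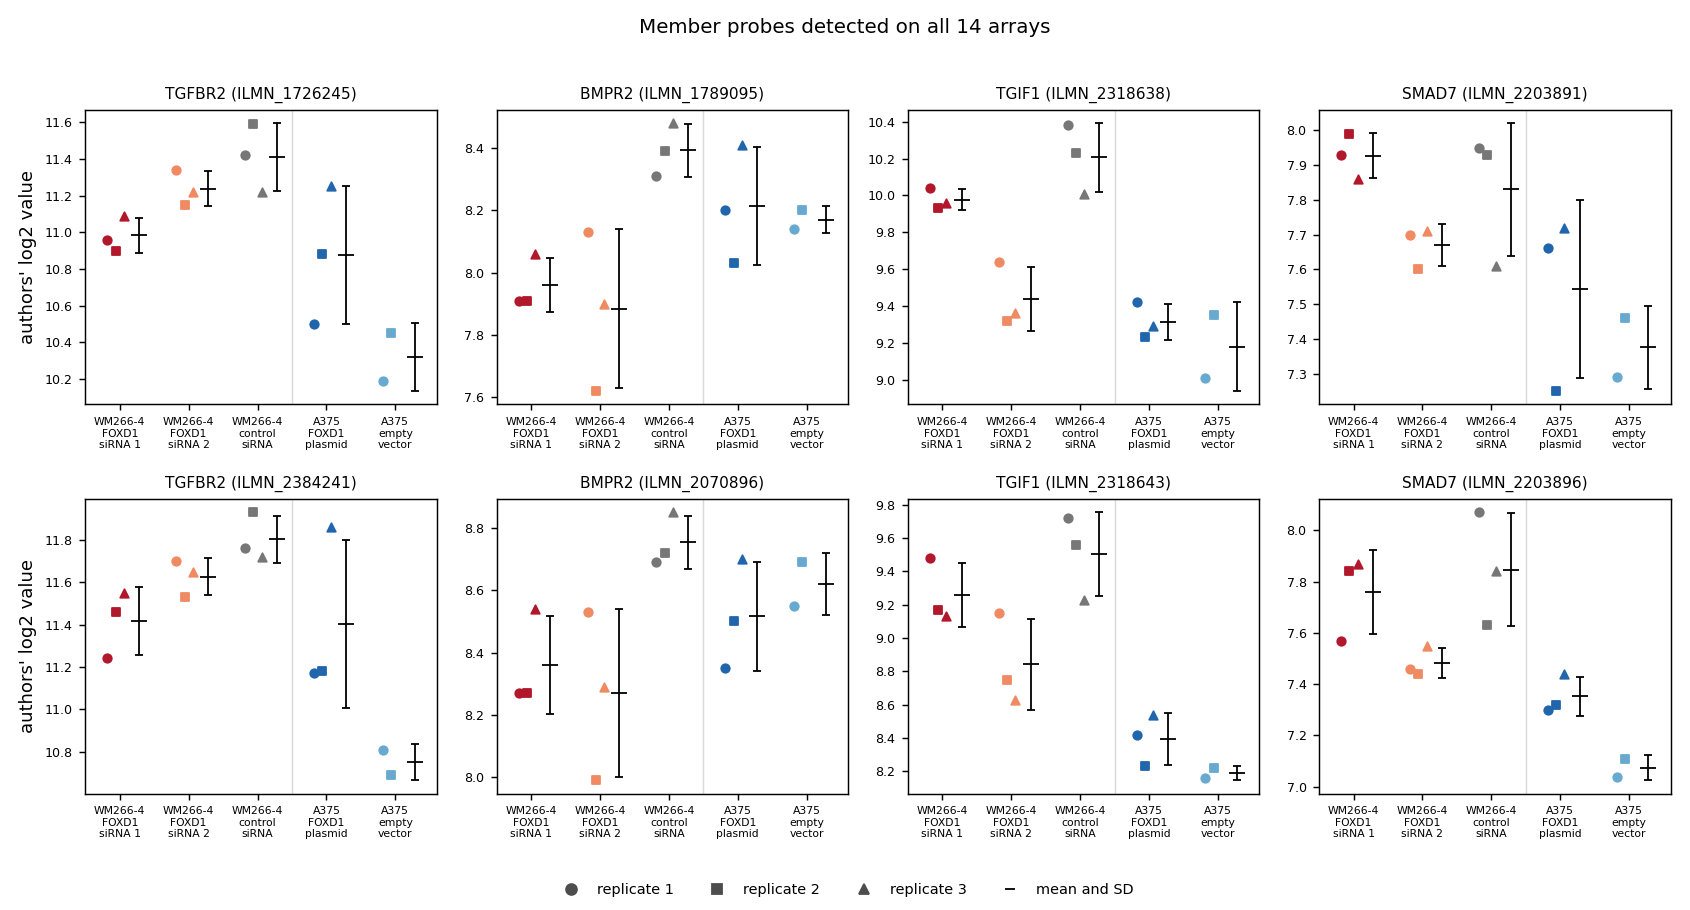
The authors' log2 values of the 8 member probes detected on all 14 arrays, by group and replicate, with the group mean and SD as horizontal marks and bars. BMPR2 lies lower in both siRNA groups than with control siRNA, TGIF1 lowest on the arrays labelled siRNA 2 within WM266-4, and TGFBR2 higher with the FOXD1 plasmid than with empty vector. The vertical axes differ and do not start at 0, and the lines were normalized separately.

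Among the nuclear and receptor-level inhibitors, TGIF1 gave the strongest change of any member. TGIF1, a homeodomain corepressor of SMAD2 and SMAD3 (chromosome 18, 3412009 to 3459978), fell on the arrays labelled siRNA 2. Probe ILMN_2318638 read 10.04, 9.93 and 9.96 with siRNA 1, 9.64, 9.32 and 9.36 on the arrays labelled siRNA 2, and 10.38, 10.23 and 10.01 with control siRNA. The arrays labelled siRNA 2 lay below every other WM266-4 array, while siRNA 1 and control overlapped. TGIF1 was 1.70-fold lower than control on the arrays labelled siRNA 2 (log2 change -0.77, SE 0.11, limma adjusted p = 0.000512), and this passed in all 14 fits that left out 1 array (adjusted p 0.000330 to 0.00495). The siRNA 1 change of -0.23 did not pass (interval -0.47 to 0.01, adjusted p = 0.284).

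The siRNA groups differed in TGIF1 in the direct test. ILMN_2318638 was 1.45-fold higher with siRNA 1 than on the arrays labelled siRNA 2 (log2 difference 0.54, SE 0.11, adjusted p = 0.0103). That call was lost without siRNA 1 replicate 1 (0.0584), without replicate 2 on the siRNA 2 side (0.0565) and with normexp correction (0.0642). Probe ILMN_2318643 read 9.48, 9.17 and 9.13 with siRNA 1, 9.15, 8.75 and 8.63 on the arrays labelled siRNA 2, and 9.72, 9.56 and 9.23 with control siRNA. The arrays labelled siRNA 2 were below all control arrays and overlapped siRNA 1. Against control it was -0.66 on the arrays labelled siRNA 2 (SE 0.14, adjusted p = 0.00974). That call was lost without control replicate 1 (0.0627) or replicate 3 of the group (0.0576). Its difference between the siRNA groups was 0.42, which passed with the replicate block (0.00385) but not without it (0.134), and passed without replicate 1 of the arrays labelled siRNA 2 (0.57, adjusted p = 0.0378).

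The 5 other TGIF1 probes were dimmer than the bright pair and were detected on 4 to 11 of 14 arrays. On the arrays labelled siRNA 2 their changes ran from -0.20 to 0.13, none of them called. ILMN_1754102 (-0.20) and ILMN_1702211 (-0.18) went the same way as the bright pair, and the rest were higher by 0.05 to 0.13. In A375 the bright TGIF1 probes overlapped between groups on ILMN_2318638, at 9.42, 9.23 and 9.29 with overexpression, against 9.01 and 9.35 with empty vector (change 0.13, interval -0.14 to 0.40). On ILMN_2318643 they did not overlap, with 8.42, 8.23 and 8.54 with overexpression, against 8.16 and 8.22 with empty vector, and the change of 0.21 did not pass (adjusted p = 0.580). Probe ILMN_1702211 was not above background on either vector array and averaged 6.64 with overexpression and 6.33 with empty vector. Overexpression replicate 3, at 6.49, was not above background either. The log2 change of 0.31 did not pass (interval 0.07 to 0.54, limma adjusted p = 0.116). With the vector group set at the lowest detected signal of its arrays, the means differed by 1.12-fold, which ignores the spread.

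SMAD7, the inhibitory SMAD that targets activated receptors (chromosome 18, 48919853 to 48950965), had 0 called probes. Probe ILMN_2203896 read 7.57, 7.84 and 7.87 with siRNA 1, 7.46, 7.44 and 7.55 on the arrays labelled siRNA 2, and 8.07, 7.63 and 7.84 with control siRNA. The arrays labelled siRNA 2 were the lowest, without overlap, at -0.36 against control (SE 0.11, adjusted p = 0.0577), which passed with the replicate block (0.0282). It also passed without control replicate 2 (-0.47, adjusted p = 0.0231), siRNA 1 replicate 1 (0.0466) or overexpression replicate 3 (0.0453). In A375 it read 7.30, 7.32 and 7.44 with overexpression, against 7.04 and 7.11 with empty vector. The groups did not overlap, and the change of 0.28 did not pass (interval 0.02 to 0.53, adjusted p = 0.209). Probe ILMN_2203891 moved less, with changes of 0.10 with siRNA 1, -0.16 on the arrays labelled siRNA 2 and 0.17 with overexpression. Its siRNA 1 change had the opposite sign to the -0.09 of ILMN_2203896, and both intervals covered 0.

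SKIL, the SMAD corepressor SnoN (chromosome 3, 170357715 to 170396849), was not called. Probe ILMN_1736834 was at 6.92, 6.67 and 6.81 with siRNA 1, 6.85, 6.70 and 6.62 on the arrays labelled siRNA 2, and 7.16, 7.08 and 6.78 with control siRNA. Control replicate 3 overlapped both siRNA groups. The change was -0.21 with siRNA 1 (adjusted p = 0.287) and -0.28 on the arrays labelled siRNA 2 (0.144). Without control replicate 3 the second of these was -0.40 and passed (0.0320). With overexpression it was 6.57, 6.68 and 6.58, against 6.81 and 6.70 with empty vector (change -0.15, interval -0.39 to 0.10). The further SKIL probe was detected on 2 of 14 arrays.

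The ligands lay near background. TGFB1, the founding TGF-beta ligand (chromosome 19, 41330323 to 41353922), was detected on 0 of 14 arrays, with log2 values of 6.37 to 6.65 over all arrays, so no level can be given. TGFB2, a further TGF-beta ligand (chromosome 1, 218345336 to 218444619), was at 6.77, 6.65 and 6.59 with siRNA 1, 6.97, 6.67 and 6.63 on the arrays labelled siRNA 2, and 6.68, 6.35 and 6.36 with control siRNA. Control replicate 1 lay among the siRNA arrays and the other two below them. Detection reached 2 of 3 arrays with either siRNA and 1 of 3 control arrays. The TGFB2 change on the arrays labelled siRNA 2 was 0.29 (SE 0.11, adjusted p = 0.159) and passed with the replicate block (0.0259). With siRNA 1 the change was 0.21 (adjusted p = 0.332). In A375, TGFB2 was at 6.60, 6.74 and 6.68 with overexpression, against 6.45 and 6.66 with empty vector, and these overlapped (adjusted p = 0.714).

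The BMP targets ID1 and ID3 were not called in any comparison. ID1 (chromosome 20, 31605289 to 31606510), on the probe detected on 9 of 14 arrays, was at 6.69, 6.89 and 6.65 with siRNA 1, 6.80, 6.66 and 7.03 on the arrays labelled siRNA 2, and 6.89, 6.59 and 6.61 with control siRNA. With overexpression it was at 6.48, 6.53 and 6.64, against 6.62 and 6.60 with empty vector. The groups overlapped throughout, and the 4 changes lay between -0.09 and 0.13. The interval for overexpression ran from -0.31 to 0.19.

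ID3 (chromosome 1, 23557926 to 23559501) was at 6.91, 6.98 and 6.40 with overexpression, against 7.03 and 7.03 with empty vector. Overexpression replicate 3 stood apart, not above background, while the other overexpression arrays lay close to vector. The change of -0.27 did not pass (interval -0.56 to 0.03, adjusted p = 0.339). In WM266-4, ID3 was at 6.45, 6.45 and 6.68 with siRNA 1, 6.44, 6.72 and 6.51 on the arrays labelled siRNA 2, and 6.42, 6.42 and 6.37 with control siRNA. Detection reached 1 of 3 arrays with either siRNA and 0 of 3 control arrays, so no fold is given. Of the other ID genes, named after their values were seen, ID4 was 1.35-fold higher with siRNA 1 (adjusted p = 0.0110, lost without control replicate 2 at 0.0745) and ID2 was 1.31-fold higher with overexpression on 1 of its probes (0.0371). That ID2 call was lost without empty vector replicate 2 or overexpression replicate 3 (adjusted p up to 0.348), with the A375 arrays alone and with the replicate block. With normexp the ID4 change was 2.09-fold and the ID2 change 1.69-fold.

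**Figure D3:**
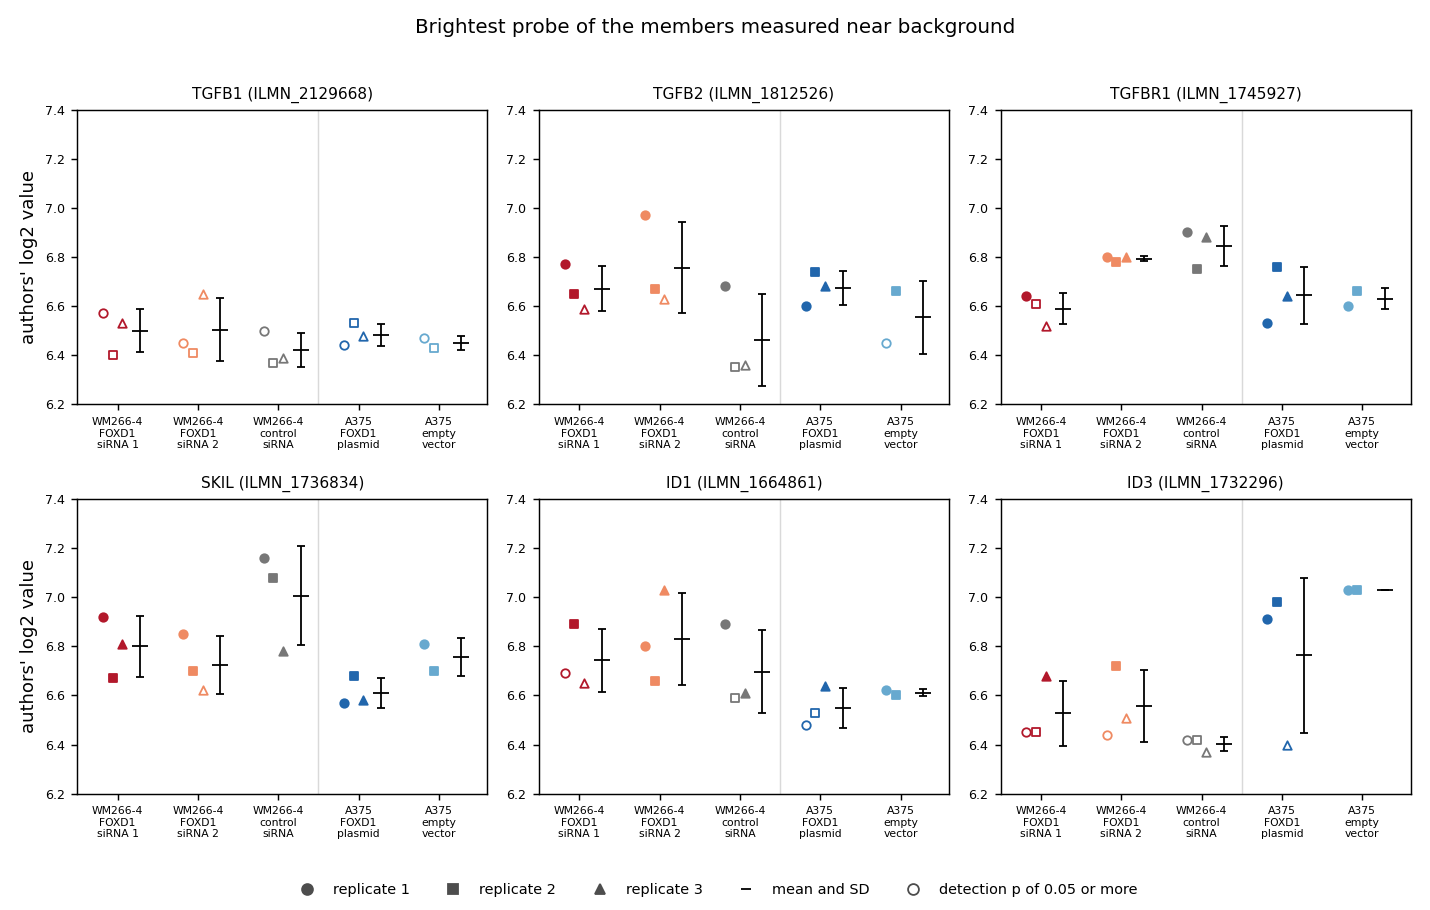
The authors' log2 values of the brightest probe of the 6 members measured near background, by group and replicate, with the group mean and SD; open symbols have a detection p of 0.05 or more. TGFB1 is open on all 14 arrays, TGFBR1 lies lowest with siRNA 1 within WM266-4, and ID3 is filled on both vector arrays and open on overexpression replicate 3. The axis does not start at 0.

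Of a wider list of pathway genes, named without the members, 54 genes with 83 probes were tested. With siRNA 1, 7 genes rose and 6 fell, 16.9% of the list's probes against 10.0% of all tested probes. On the arrays labelled siRNA 2, 5 rose and 4 fell, 12.05% against 5.79%. Between the siRNA groups 1 gene was higher and 6 were lower with siRNA 1, 8.43% against 4.42%. With overexpression 6 rose and 0 fell, 9.64% against 7.02%. Of all 32167 tested probes only 21569 were named, whereas the list holds named genes only. The shares thus differ in base, and no excess is read from them. With 1 probe per gene, calls over all 15544 genes numbered 2379 with siRNA 1 and 1391 on the arrays labelled siRNA 2. They numbered 1116 between the siRNA groups and 1654 with overexpression. The list's median changes were within 0.01 of 0 in all 4 comparisons. With the replicate block, 24 list probes were called with siRNA 1, 19 on the arrays labelled siRNA 2 and 11 between them, in place of 14, 10 and 7, while the block called 15.2%, 10.6% and 8.67% of all tested probes.

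Among the receptors of the wider list, TGFBR3 and ACVR1 fell and ENG rose in both siRNA groups. TGFBR3 (betaglycan, a co-receptor that presents TGF-beta to TGFBR2) read 7.80, 8.04 and 7.94 with siRNA 1, 8.43, 8.94 and 8.59 on the arrays labelled siRNA 2, and 9.20, 9.76 and 9.16 with control siRNA. The 3 groups did not overlap. It was 2.73-fold lower with siRNA 1 (log2 change -1.45, SE 0.18, adjusted p = 4.5e-05), 1.65-fold lower on the arrays labelled siRNA 2 (-0.72, adjusted p = 0.0239), and lower with siRNA 1 than on those by 1.65-fold (adjusted p = 0.0275). ENG (endoglin, a co-receptor best known from endothelium) was 1.87-fold higher with siRNA 1 (adjusted p = 0.00137) and 1.72-fold higher on the arrays labelled siRNA 2 (0.00724), and every siRNA array exceeded every control array. ACVR1, a BMP type I receptor, was 1.45-fold lower with siRNA 1 (0.00655) and 1.55-fold lower on the arrays labelled siRNA 2 (0.00351). The TGFBR3 call on the arrays labelled siRNA 2 was lost without control replicate 2 (0.135), without replicate 1 or 3 of that group (0.117 and 0.0833) and with normexp (0.0733). The TGFBR3 difference between the siRNA groups was lost without siRNA 1 replicate 1 or 3 (0.131 and 0.0826) or replicate 2 or 3 of the other group (0.142 and 0.0586).

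Extracellular regulators rose where they were called against control siRNA or empty vector. LTBP4, which holds latent TGF-beta in the matrix, was 1.74-fold higher with siRNA 1 on ILMN_1665219 (adjusted p = 0.00137), while its other probe was not called (change 0.07). On the arrays labelled siRNA 2, TWSG1, a BMP-binding protein, was 1.52-fold higher (0.00119). With overexpression TWSG1 read 10.08, 10.22 and 10.11, against 9.60 and 9.67 with empty vector, and was 1.42-fold higher (0.0101). The other TWSG1 probe, ILMN_1726967, was not called (changes of 0.03 to 0.25). FST (follistatin, which binds activin) rose with overexpression on both probes. On ILMN_1700081 it read 9.84, 10.02 and 10.41, against 8.49 and 8.49 with empty vector (3.03-fold, adjusted p = 0.000444), and on ILMN_1712896 it was 1.64-fold higher (0.000973). With normexp the ILMN_1712896 change was 2.75-fold with overexpression. With siRNA 1 the same FST probe was 1.25-fold higher (0.0459; 1.70-fold with normexp), a call lost in 8 of 14 fits that left out 1 array. FSTL1, a follistatin relative, was 1.63-fold higher with overexpression than with empty vector (0.0111). Without empty vector replicate 1 or 2 the overexpression calls of TWSG1 (0.0702 and 0.0729) and FSTL1 (0.0602 and 0.106) were lost, as they were with normexp (0.0683 and 0.0553), and that of FSTL1 also with the A375 arrays alone (0.0811).

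Among ligands and their relatives, GDF11 fell with siRNA 1 by 2.08-fold (log2 change -1.05, adjusted p = 0.0355), at 8.85, 8.85 and 8.77, against 9.66, 10.10 and 9.87 with control siRNA. The groups lay far apart, yet its call was lost without any 1 of these 6 arrays (0.0569 to 0.141) and with trend and robust moderation (0.168) or normexp (0.0630). Over the 14 fits that left out 1 array, the limma adjusted p of this change ran from 9.69e-06 to 0.141. On the arrays labelled siRNA 2 the same probe changed by -0.68, which did not pass (0.273) but passed in 1 of those 14 fits (0.00144). Overexpression replicate 3 read 9.07 for GDF11, against 10.98 and 10.60 for replicates 1 and 2, and without it GDF11 was 1.00 higher on the log2 scale with overexpression (adjusted p = 0.00044). BMP1, which despite its name is a procollagen protease, was 1.41-fold higher with overexpression (adjusted p = 0.0183), and its call was lost without either vector array (0.104 and 0.114), without overexpression replicate 2 (0.0588) and with normexp (0.0668). The other GDF11 probe was not called with siRNA 1 (change -0.25, adjusted p = 0.339).

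Of the 6 SMADs of the wider list, 0 rose and 1 fell with siRNA 1 (10.0% of all tested probes were called), and 0 were called against control on the arrays labelled siRNA 2 (5.79%) or with overexpression (7.02%). An unadjusted p under 0.05 was reached by 0 of 10 SMAD probes on the arrays labelled siRNA 2 and by 1 with overexpression (limma). Of all 32167 tested probes, 5220 and 6024 reached it. The SMAD and the inhibitors that follow lie outside the naming rule and were chosen after their values were seen. SMAD5, which BMP receptors phosphorylate, was 1.25-fold lower with siRNA 1 on 1 of 3 probes (adjusted p = 0.0281), and its call was lost in 5 of 14 fits that left out 1 array (up to 0.116), with normexp correction and with trend and robust moderation. Of 11 inhibitors that act in the cell or, as BAMBI does, at its membrane, 2 rose and 1 fell with siRNA 1. On the arrays labelled siRNA 2, 2 rose and 1 fell, and 0 were called with overexpression, against the same shares of all probes. Of the 22 inhibitor probes, 2 had an unadjusted p under 0.05 with overexpression, as did 6024 of all 32167 tested probes (limma). BAMBI, a decoy receptor, was 1.41-fold lower with siRNA 1 (0.00179), and FKBP1A, which holds the type I receptor inactive, was 1.68-fold higher on 1 of its 4 probes (3.87e-05). Both calls held in all 14 fits that left out 1 array.

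Among the targets, CCN2 (also CTGF, named in the series title) moved most. On ILMN_1699829 it read 10.10, 9.91 and 10.11 with siRNA 1, 9.74, 9.75 and 9.96 on the arrays labelled siRNA 2, and 12.90, 13.20 and 12.75 with control siRNA. It was 7.52-fold lower with siRNA 1 (adjusted p = 9.38e-08) and 8.78-fold lower on the arrays labelled siRNA 2 (7.55e-08), and both siRNA groups lay far from control. In A375 it was 3.92-fold higher with overexpression (adjusted p = 8.71e-05), at 8.85, 9.55 and 9.94 with overexpression, against 7.72 and 7.23 with empty vector. The other CCN2 probe, ILMN_2115125, was 2.43-fold higher with overexpression (0.00113), and with normexp the changes of the pair were 6.09-fold and 4.13-fold. CCN2 also answers to YAP and TAZ, so it is no exclusive readout of TGF-beta. MSX1, a homeobox gene downstream of BMP in development, was 1.80-fold higher with siRNA 1 (0.00555). SPSB1, which promotes degradation of TGFBR2, was 1.49-fold higher on the arrays labelled siRNA 2 (0.00383) and 1.36-fold lower with siRNA 1 than on those (0.0270). That last call was lost without siRNA 1 replicate 1 or 3 (0.0608 and 0.147), without replicate 1 or 2 on the siRNA 2 side (0.111 and 0.118) and with normexp (0.106).

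**Figure D4:**
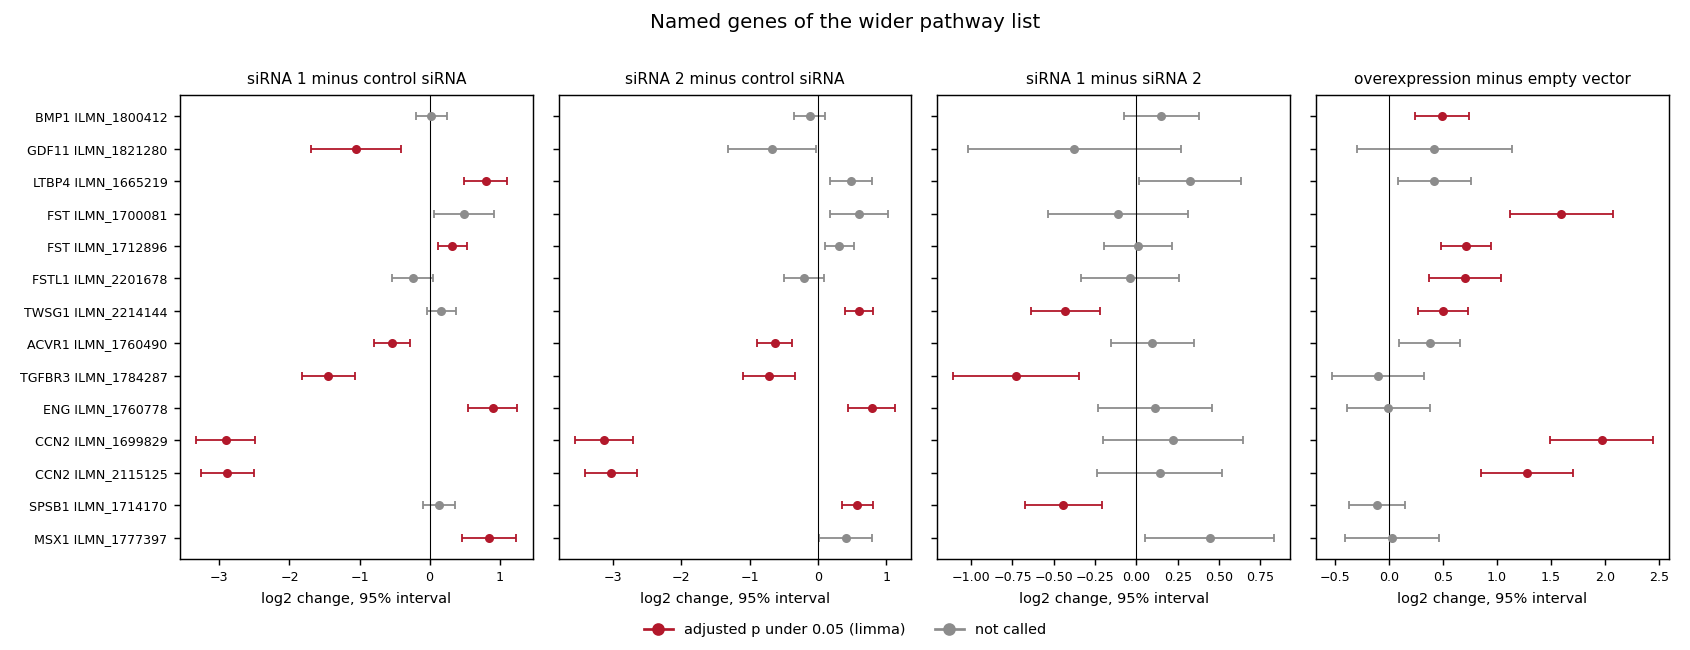
Log2 change (points) with its 95% interval (bars) of the named genes of the wider pathway list in the 4 comparisons, the first-named group minus the second, with red for a limma adjusted p under 0.05. CCN2 and TGFBR3 lie left of 0 in both siRNA panels, ENG lies right of 0 there, and FST and CCN2 are the farthest right with overexpression. The horizontal axes differ between panels.

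The probe pairs of a gene moved together to unequal degrees. After centring within each line, the Pearson correlation over the 14 arrays was 0.932 for the BMPR2 pair, 0.916 for TGIF1, 0.899 for TGFBR2 and 0.50 for SMAD7, a description of arrays that share line, normalization and treatment. By the same measure, the genes most like SMAD7 were CFAP36 (0.826), PLGLB1, GSPT2, ZNF124 and NR6A1 (0.800 or more), of which PLGLB1 and NR6A1 were detected on only 3 and 5 of 14 arrays. Those most like TGFB2 were EEF1D (0.920), PDLIM5, RRS1, SRI and CCDC112 (0.841 or more). For ID1 they were ZBTB47 (0.837), NPAS3, CXCR3, ISCA1 and ZNF563 (0.801 or more), of which NPAS3 and CXCR3 were detected on only 2 and 3 of 14 arrays. The highest of many correlations over 14 arrays are high by selection, so these values only rank genes.

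**Figure D5:**
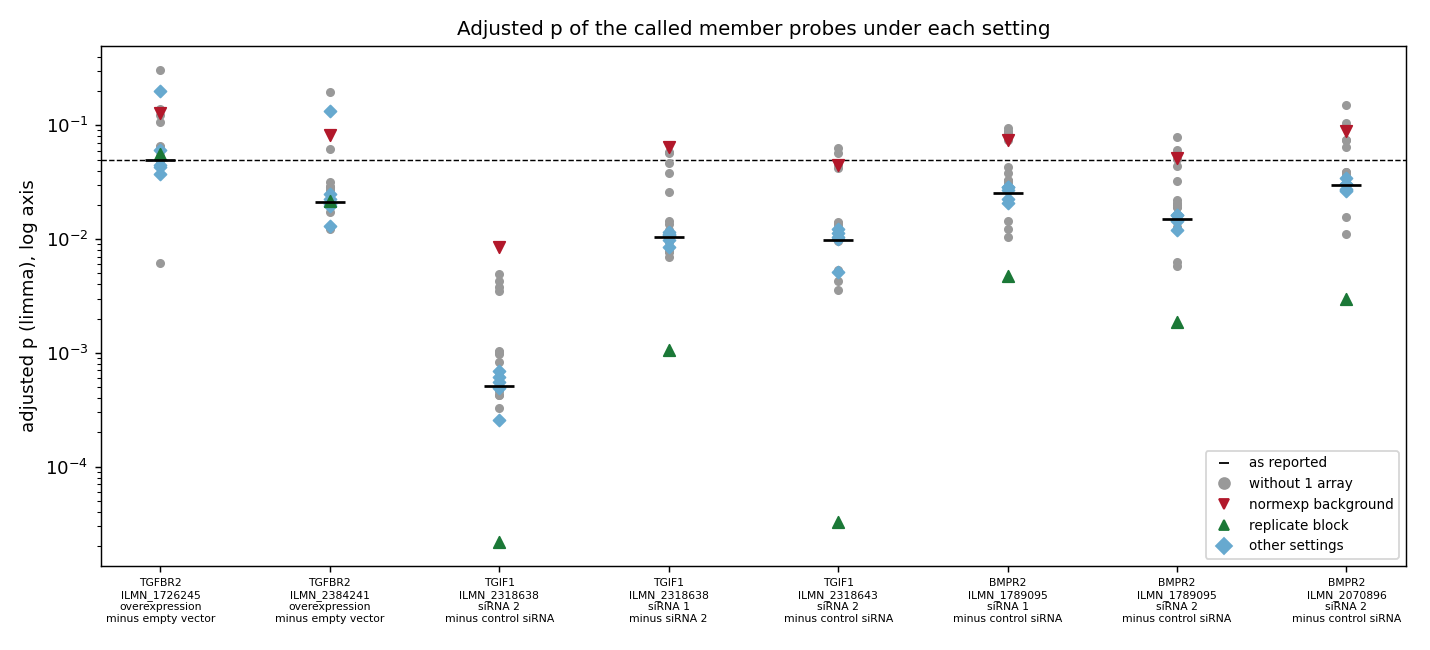
Adjusted p (log axis) of the 8 called changes of member probes under every setting tried, with the value as reported as a black bar and 0.05 as a dashed line. TGIF1 ILMN_2318638 on the arrays labelled siRNA 2 stays below the line in all settings, whereas the TGFBR2 and BMPR2 changes cross it.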

How the data were processed

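The authors deposited, per the file headers, a linear probe intensity and a detection p-value for each of 14 arrays, and a table of log2 values. Set against the intensities, the deposited log2 values were quantile normalized within each cell line without background subtraction (largest difference from that calculation in WM266-4 0.00597). The sources used here do not give the scanner software or the authors' own steps. The intensity column of A375 empty vector replicate 1 is a copy of overexpression replicate 3 (100% of probes within 1%, against at most 7.37% for any other pair). Its detection p-values follow the log2 table, so the log2 values were used, and the antilog of that column stood in for the copied one where intensities were needed.

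The table listed 48107 probes, and 10 that lacked a value were dropped. The platform annotation of 2016 gave a single symbol to 30107 probes, more than 1 to 8 and no symbol to 17982, and 30068 named probes matched RefSeq (GRCh38.p14). Promoter windows came from RefSeq. Probes with a detection p under 0.05 on at least 2 arrays were tested, 32167 in all. A limma 3.58.1 fit (R 4.3.3; lmFit, eBayes) held 5 groups without covariates (9 residual and 7.71 prior degrees of freedom), with Benjamini-Hochberg adjustment over all tested probes, and was tested on simulated data. The number of arrays limits the precision.

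Alternatives were normexp correction (offset 16) with joint quantile normalization, joint quantile normalization alone, no detection filter, detection p under 0.01 on every array of a group, 1 probe per gene, trend and robust moderation, the arrays of 1 line, a replicate block within each line, and leaving out each array. Residuals of same-numbered WM266-4 arrays correlated at 0.165 to 0.322 over 9 pairs, so the numbers were taken to pair these arrays. Those of different numbers correlated at -0.237 to -0.0446, which is no separate evidence, since residuals were taken from the mean of each group. The main fit leaves this pairing out, so WM266-4 calls are to be read beside those of the replicate block. In A375 the same-number correlations were -0.0353 and 0.0561. Members are named throughout. Of the wider list, genes with a called change of at least 0.4 were named, up to 6 per comparison by size, with FOXD1, FOXD2 and CCN2 as checks, and for ID1, SMAD7 and TGFB2 the 5 genes most correlated. Members and lists were chosen with earlier results of these data known.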

Additional observations from a re-analysis of the deposited data

Results flagged for a closer look

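The siRNA 1 arrays differed from the arrays labelled siRNA 2, in the direct limma test, for 5 genes taken by the naming rule. FOXD1 differed by -0.56 on the log2 scale, as it was lower with siRNA 1 alone (limma adjusted p = 0.00126). TGIF1 on ILMN_2318638 differed by 0.54 (0.0103), TGFBR3 by -0.73 (0.0275), SPSB1 by -0.44 (0.0270) and TWSG1 by -0.43 (0.0162). In all 5, the arrays of 1 siRNA group lay wholly on 1 side of the other, as in 19.7% of all tested probes. The 5 were taken by their call in this same comparison, so that separation adds no further evidence. The TWSG1 difference was lost without siRNA 1 replicate 2 or 3 (0.0666 and 0.0551), without replicate 1 or 3 of the other group (0.0835 and 0.0561) and with normexp correction (0.111). Outside that rule, named after their values were seen, the siRNA groups also differed in PPM1A (-0.38, adjusted p = 0.00856), SMAD5 (-0.37, 0.0210), FKBP1A (0.36, 0.0302) and ACVR2A (-0.38, 0.0425), each on 1 of several probes. No group holds 4 or more arrays, so single arrays were not tested as outliers.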

How the results depend on the processing

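No member change reversed its sign while called, under any alternative. The count of called member probes, 1 with siRNA 1, was 3 with detection p under 0.01 on every array of a group. It was 3 with the WM266-4 arrays alone and 5 with the replicate block, and ran from 0 to 4 when 1 array was left out. Calls over all tested probes moved too, from 3220 of 32167 with siRNA 1 to 3423 of 19531 with that detection filter. They were 3721 of 32167 with the WM266-4 arrays alone and 4876 with the replicate block. On the arrays labelled siRNA 2 the 4 calls became 2 with normexp correction and 2 with 1 probe per gene, and ran from 2 to 5 without 1 array. There, normexp called 3.64% of all tested probes, and 1 probe per gene gave 1391 calls of 15544. Between the siRNA groups the 1 call became 0 with normexp correction and 2 with the replicate block, and ran from 0 to 2. With overexpression the 2 calls became 0 with normexp correction, 1 without a detection filter, 1 with 1 probe per gene and 0 with the A375 arrays alone, and ran from 0 to 2. Over all probes, overexpression gave 2144 calls of 48097 without a detection filter and 1654 of 15544 with 1 probe per gene. It gave 885 of 32167 with the A375 arrays alone and 3.72% with normexp. In A375, where the numbers share only a number, the replicate block kept 1 call, TGFBR2 on ILMN_2384241 (0.43, adjusted p = 0.0214), gained TGIF1 on ILMN_1702211 (0.38, 0.0246), and lost TGFBR2 on ILMN_1726245 (0.37, 0.0561); overexpression replicate 3 has no partner there. Joint normalization and trend and robust moderation changed 0 member calls. In the wider list, normexp gave 3 calls between the siRNA groups and 5 with overexpression in place of 7 and 8, and the block gave 13 with overexpression. Over all tested probes, normexp called 2.96% and 3.72% in these comparisons, and the block called 3571 of 32167 with overexpression. Signal close to background limits the 12 member probes that were tested but not detected on all arrays. Causes were not tested.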
